A study of Mus musculus with 12 samples.

Results

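The cortical interneuron subclass markers are 10 genes, Pvalb, Sst, Vip, Npy, Cck, Calb2, Reln, Lhx6, Sox6 and Adarb2, among 54232 gene rows of a count table of mouse cortex. They were chosen by name, as markers of the main classes of inhibitory interneuron and of the factors that specify them, and each name matched 1 row through GENCODE M21. The rule used names alone, and it was set with earlier results of these data known. The mice were C57BL/6J animals aged 12 weeks, either wild type or homozygous for the Y446C allele of Tbl1xr1 (Tbl1xr1Y446C/Y446C), a subunit of a nuclear receptor corepressor complex. Each genotype had 6 mice, 3 females and 3 males, and each mouse gave 1 RNA sequencing library from frozen cortex. The sources used here do not say how the allele was made or which mice were littermates. The comparison of interest sets the homozygotes against the wild types.

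Cortical interneurons release GABA and fall into classes that are told apart by a few proteins. Parvalbumin and somatostatin cells arise in the medial ganglionic eminence, where the LIM homeodomain factor Lhx6 and, downstream of it, Sox6 guide their migration and maturation, whereas Vip cells and most reelin cells outside the somatostatin class arise in the caudal eminence, which Adarb2 marks. Parvalbumin cells inhibit the soma and axon start of pyramidal cells, somatostatin cells their dendrites, and Vip cells mainly other interneurons.

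Levels are CPM, counts per 1e+06 counts of the library, with totals scaled by the trimmed mean of M values (TMM). Depth was 21238427 to 32669138 gene counts in 11 libraries, of which 5.23% to 10.4% were mitochondrial. The library of female mutant 3 was set apart by its 3748515 counts and its mitochondrial share of 31.6%, and its members rested on 44 (Lhx6) to 197 (Reln) counts. Male mutant 10 stood apart in another way. A list of 8 genes known from cerebellar granule and Purkinje cells (Gabra6, Cbln3, Cbln1, Fat2, Pcp2, Car8, Ppp1r17, En2), drawn up after its values were seen, summed to 567 CPM there and to 18.5 to 54.6 CPM in the other 11 libraries. All 8 were highest in male mutant 10, at 5.08 to 16.9 times the next library, and Gabra6, Fat2 and Pcp2 were at 0 in at least 1 other library. The change of each member over both sexes is therefore given with all 12 libraries, without female mutant 3, and without both, and other values are from all 12 libraries unless a set is named. The cortex label was read against Slc17a7, a marker of cortical excitatory neurons, which stood at 193 to 860 CPM. In bulk tissue, fewer cells of a type and less RNA per cell cannot be told apart.

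None of the 10 markers differed between genotypes beyond the spread between mice. In edgeR's quasi-likelihood test of genotype with sex as a term, 0 of 10 passed an adjusted p of 0.05 (adjusted p = 0.950 to 0.999), beside 0.00555% of all 18016 genes tested. Without female mutant 3, 0 of 10 passed (adjusted p = 0.742 to 0.999; 0.0108% of all genes), and without both libraries 0 of 10 passed (adjusted p = 0.664 to 0.989; 0.0109% of all genes). At an unadjusted p under 0.05 there were also 0 members in each of these 3 fits, beside 3.96% of all genes with all 12 libraries, 7.46% without female mutant 3 and 7.6% without both. Neither DESeq2 nor limma-voom called a member. Of the 10, 6 were higher and 4 lower in the mutants, and their median log2 fold change was 0.019, near the median of all genes tested (-0.010).

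The 95% intervals show what sizes of change these data leave possible. With all 12 libraries, the interval of 9 members lay within a 2-fold change in either direction, the exception being Calb2, and that of 6 members lay within 1.5-fold. Within 1.5-fold lay 8 members without female mutant 3, and 9 without both libraries.

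**Figure D1:**
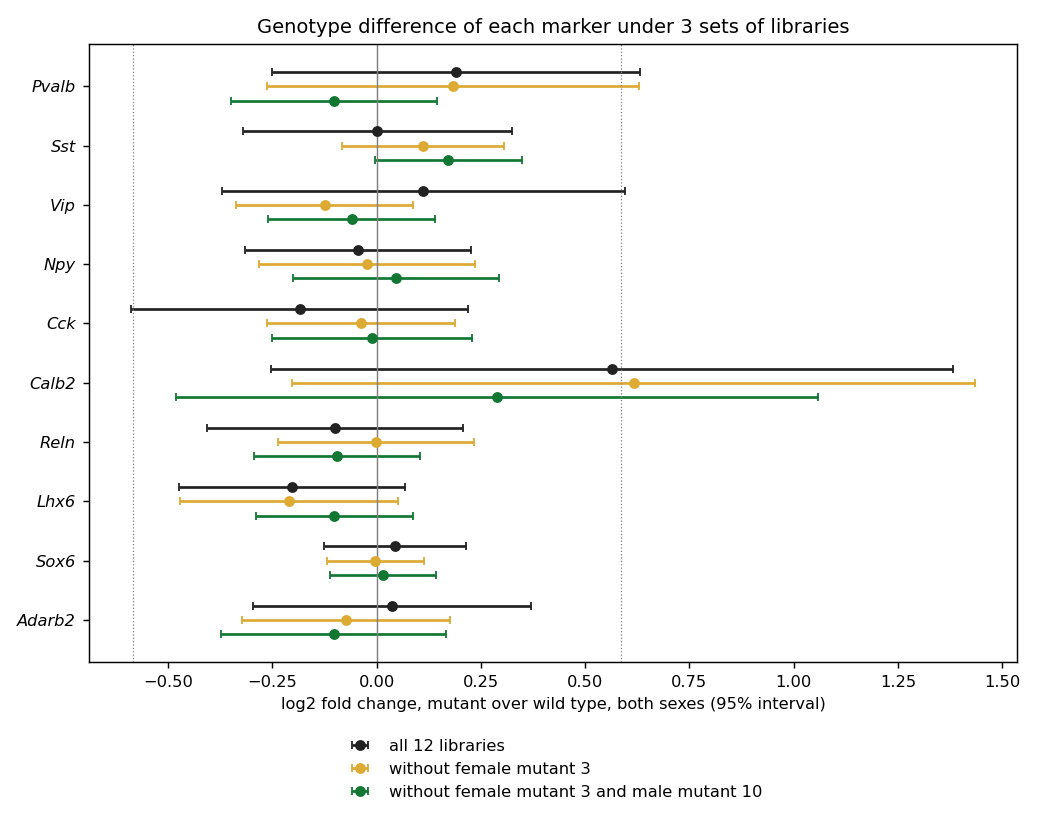
Log2 fold change of each marker, mutant over wild type over both sexes, with its 95% interval (x axis), for 3 sets of libraries; dotted lines mark a 1.5-fold change in either direction. Every interval includes 0, the Calb2 intervals are the widest, and Pvalb, Vip, Npy, Sox6 and Adarb2 change sign between sets.

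Libraries are listed below in the order of the animal numbers, females 2, 4 and 5 and males 8, 12 and 13 for the wild types, females 1, 3 and 6 and males 7, 10 and 27 for the mutants. The second value of each mutant trio is thus female mutant 3 or male mutant 10.

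The calcium-binding proteins come first. Pvalb (ENSMUSG00000005716, GRCm38 chromosome 15, 78191114 to 78206400, minus strand) encodes parvalbumin, the buffer of fast-spiking basket and chandelier cells. In wild types it stood at 33.1, 35.8 and 37.0 CPM in females and at 35.2, 31.2 and 31.3 CPM in males. In mutants it stood at 43.0, 39.9 and 27.9 CPM in females and at 31.3, 65.5 and 25.0 CPM in males. The wild types were tightly grouped, at 33.9 ± 2.43 CPM (SD, n = 6), and the mutants spread to either side of them, at 38.8 ± 14.8 CPM (n = 6). The log2 fold change was 0.19 (95% interval -0.25 to 0.63) with all libraries and 0.18 without female mutant 3. It was -0.10 (-0.35 to 0.15) once male mutant 10 was left out as well, so the sign of the Pvalb difference rested on that library. Parvalbumin is also abundant in cerebellar Purkinje cells, and male mutant 10 held both the highest Pvalb and the highest cerebellar gene levels. The part of the latter in the former was not tested.

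Calb2 (ENSMUSG00000003657, chromosome 8, 110137502 to 110168210, minus strand) encodes calretinin, carried by a share of Vip cells in the cortex and by many neurons of the thalamus, olfactory bulb and cerebellum. It was the most variable member, at 31.9, 19.1 and 10.5 CPM in wild-type females and 21.7, 10.02 and 36.8 CPM in wild-type males. Mutant females read 40.3, 22.8 and 19.0 CPM, and mutant males 28.3, 62.7 and 18.9 CPM. The highest library was 6.25 times the lowest, and within the wild types alone the coefficient of variation was 50.6%. Against that spread, the log2 fold change was 0.56 (95% interval -0.25 to 1.38), 0.62 without female mutant 3 and 0.29 (-0.48 to 1.06) without both.

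Markers of other regions were read beside Calb2. A thalamic list of 5 genes summed to 137 to 343 CPM in wild types and 86.7 to 450.3 CPM in mutants, and an olfactory bulb list of 6 genes to 30.2 to 58.6 CPM and 24.4 to 36.9 CPM. The olfactory bulb list was highest in male wild type 13 (Calb2 36.8 CPM) and next in female wild type 5 (Calb2 10.5 CPM). The thalamic list was highest in female mutant 3 (450.3 CPM, Calb2 22.8 CPM), where its gene Slc17a6 alone stood at 311 CPM. Next came male wild type 8 (343 CPM, Calb2 21.7 CPM), female mutant 1 (335 CPM, Calb2 40.3 CPM) and female wild type 2 (309 CPM, Calb2 31.9 CPM). It was lowest in male mutant 27 (86.7 CPM, Calb2 18.9 CPM), female mutant 6 (130 CPM, Calb2 19.0 CPM) and male wild type 12 (137 CPM, Calb2 10.02 CPM). Male mutant 10, highest in Calb2, ranked 4 of 12 on the olfactory bulb list and 6 of 12 on the thalamic list. Of the olfactory bulb list, 2 of 6 genes, Sp8 among them, were at 0 counts in female mutant 3 and 0 genes were so elsewhere. The part of such regions in the Calb2 levels was not tested.

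**Figure D2:**
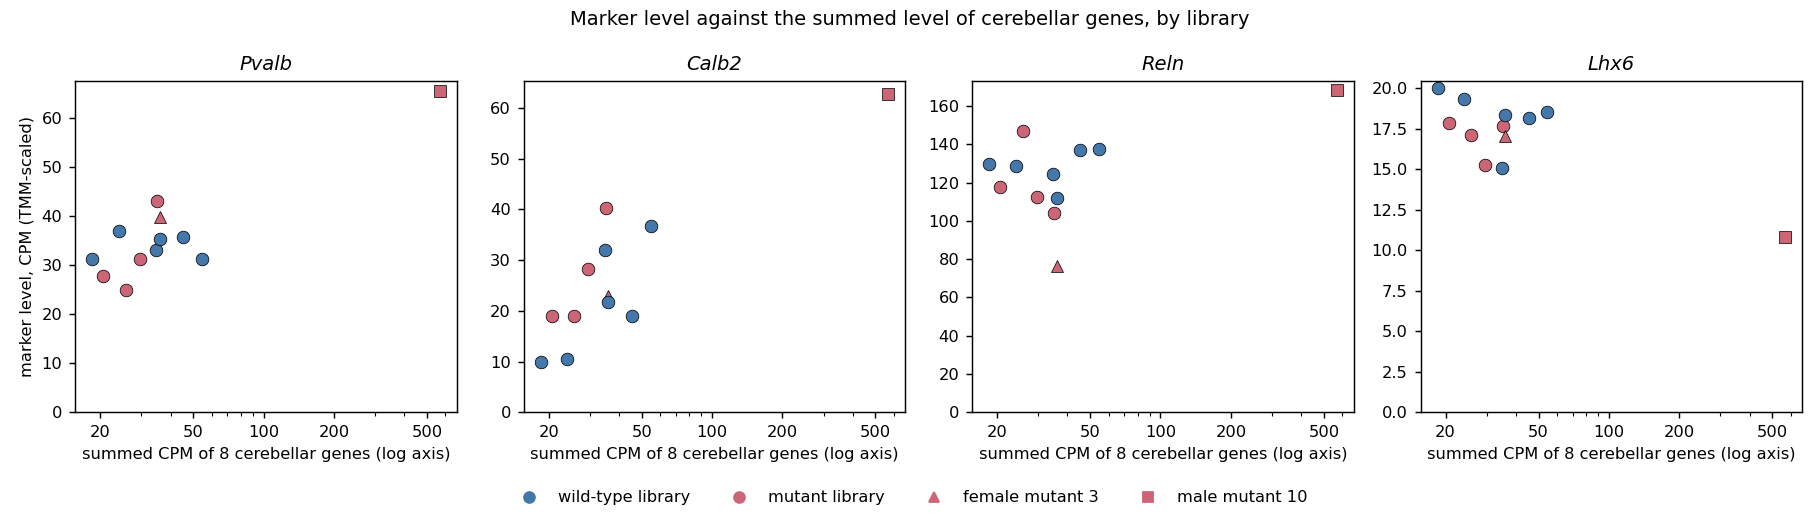
Levels of Pvalb, Calb2, Reln and Lhx6 in CPM (y axes) against the summed CPM of 8 cerebellar genes (x axis, log scale), 1 point per library, with female mutant 3 as a triangle and male mutant 10 as a square. Male mutant 10 lies alone at 567 CPM on the x axis, with the highest Pvalb, Calb2 and Reln and the lowest Lhx6.

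The neuropeptide genes Sst, Vip, Npy and Cck encode secreted signals that also name interneuron classes. Sst transcription is the textbook case of induction by cyclic AMP, through a palindromic cyclic AMP response element bound by CREB. Promoter windows of RefSeq starts (GRCm38.p6, 250 bases before to 50 after the start) were found for 9 of the 10 members, 17 windows in all. The palindrome TGACGTCA, the same on both strands, was in 1 of these windows, that of Sst, and in 1.79% of all 32851 windows. Its first 5 letters, TGACG, read on either strand, were in 4 of the 17 windows, beside 20.8% of all windows. These were 1 window each of Sst (inside the palindrome), Vip, Cck and Sox6. Counted by gene, they were in 4 of 9 members, beside 23.0% of all genes with a window. In female mutant 3, Vip (132 counts) and Sox6 (116) were at their highest of the 12 libraries, and Sst (112) and Cck (87) at their lowest. Of the members without TGACG in a window, Adarb2 (124) was also highest there and Reln (197) lowest. Any tie of the letters TGACG to these levels was not tested. The 3 neuropeptide promoters with these letters are shown. Each runs 5′ to 3′ on the gene's strand from 100 bases before the start, and capitals mark the match, at -48 in Sst, -79 in Vip and, on the other strand, -47 in Cck.
Sst, chr16:23890825-23890944, minus strand: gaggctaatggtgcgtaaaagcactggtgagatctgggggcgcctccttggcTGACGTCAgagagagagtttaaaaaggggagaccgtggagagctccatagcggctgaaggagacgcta
Vip, chr10:5639118-5639237, plus strand: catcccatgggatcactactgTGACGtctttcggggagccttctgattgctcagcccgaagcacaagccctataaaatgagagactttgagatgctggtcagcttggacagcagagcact
Cck, chr9:121495675-121495794, minus strand: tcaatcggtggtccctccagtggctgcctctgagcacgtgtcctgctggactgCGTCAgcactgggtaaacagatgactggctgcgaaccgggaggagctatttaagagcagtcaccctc
The nuclear receptor hexamer AGGTCA, searched on both strands because Tbl1xr1 serves a corepressor of such receptors, was in 2 windows of Sox6 and in 16.3% of all windows. Each match describes letters and says nothing of binding.

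Sst (ENSMUSG00000004366, chromosome 16, 23889573 to 23890958, minus strand) encodes somatostatin, the peptide of dendrite-targeting interneurons. It read 68.2, 76.5 and 80.7 CPM in wild-type females and 75.2, 75.2 and 74.4 CPM in wild-type males. In mutant females it read 74.6, 43.4 and 94.1 CPM, and in mutant males 75.4, 65.6 and 93.7 CPM. Female mutant 6 and male mutant 27 lay above all wild types, and female mutant 3 and male mutant 10 below all of them. The log2 fold change was 0.0014 (95% interval -0.32 to 0.32) with all libraries, 0.11 (-0.08 to 0.30) without female mutant 3 and 0.17 (-0.0035 to 0.35) without both. In that last fit Sst had the smallest p of the 10 members (unadjusted p = 0.0540, adjusted p = 0.664, edgeR), which did not pass.

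Vip (ENSMUSG00000019772, chromosome 10, 5639218 to 5647617, plus strand) encodes the peptide of interneurons that inhibit other interneurons. Its wild-type levels were 21.7, 18.9 and 19.7 CPM in females and 18.6, 22.3 and 22.9 CPM in males. The mutants read 19.5, 51.1 and 22.7 CPM in females and 17.6, 15.3 and 19.6 CPM in males. Female mutant 3 thus held 51.1 CPM, from 132 counts, while the other 11 libraries lay between 15.3 and 22.9 CPM. With all libraries the log2 fold change was 0.11 (95% interval -0.37 to 0.60), and without female mutant 3 it was -0.12 (-0.34 to 0.09), so that library set its sign. Without both libraries it was -0.06.

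Npy (ENSMUSG00000029819, chromosome 6, 49822710 to 49829507, plus strand) encodes neuropeptide Y, found in neurogliaform cells and in part of the somatostatin cells. It stood at 31.6 ± 5.15 CPM in wild types and 30.5 ± 4.51 CPM in mutants (SD, n = 6). The wild-type range, 26.5 to 40.7 CPM, covered that of the mutants except for male mutant 10, the lowest at 23.7 CPM. The log2 fold change was -0.045 (95% interval -0.32 to 0.23), -0.022 without female mutant 3 and 0.047 (-0.20 to 0.29) without both.

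Cck (ENSMUSG00000032532, chromosome 9, 121489824 to 121495694, minus strand) encodes cholecystokinin, which marks a class of basket cells but is also made by cortical pyramidal cells, so its bulk level is not a measure of interneurons alone. It read 81.2, 96.8 and 86.3 CPM in wild-type females, and 66.2, 87.7 and 88.0 CPM in wild-type males. Mutant females read 68.1, 33.7 and 83.3 CPM, and mutant males 86.4, 75.8 and 97.7 CPM. Apart from female mutant 3, at 33.7 CPM, the genotypes covered nearly the same range. Leaving it out moved the log2 fold change from -0.18 (95% interval -0.59 to 0.22) to -0.04 (-0.26 to 0.19), and it was -0.01 without both.

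**Figure D3:**
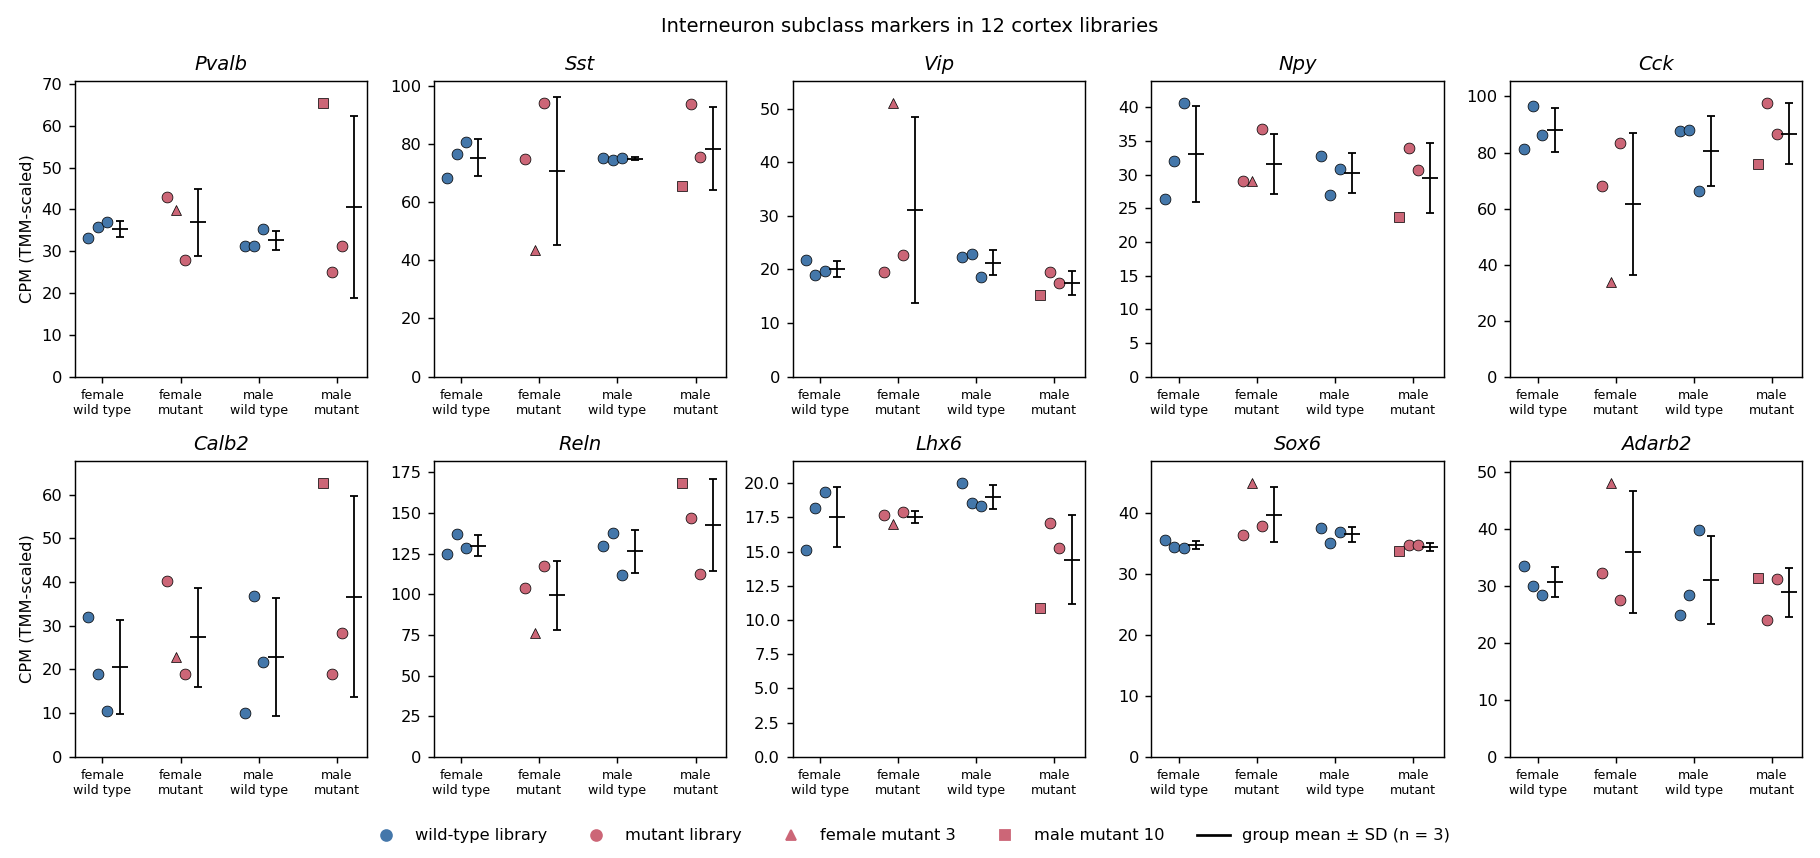
Level of each marker in CPM (y axes) in every library, by sex and genotype; bars give the mean and SD of 3 mice, the triangle is female mutant 3 and the square male mutant 10. Female mutant 3 is the highest library for Vip, Sox6 and Adarb2 and the lowest for Sst, Cck and Reln, while male mutant 10 is the highest for Pvalb, Calb2 and Reln and the lowest for Vip, Npy and Lhx6.

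Reln (ENSMUSG00000042453, chromosome 5, 21884454 to 22344702, minus strand) encodes reelin, the secreted glycoprotein that positions migrating neurons in development and is made in the adult by interneurons of the outer layers, and by cerebellar granule cells. Wild-type females read 125, 137 and 128 CPM, and wild-type males 112, 129.7 and 138 CPM. Mutant females read 104, 76.3 and 118 CPM, all below the 3 wild-type females. Mutant males read 113, 168 and 147 CPM, of which only the first lay inside the wild-type male range. Over both sexes the log2 fold change was -0.10 (95% interval -0.41 to 0.21), -0.0021 without female mutant 3 and -0.09 without both. Reln overlaps 7 other annotated genes, with 246 bases shared between exons, and the sources used here do not give the strand setting of the counting.

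The transcription factors Lhx6 and Sox6 keep the identity of parvalbumin and somatostatin cells. Lhx6 (ENSMUSG00000026890, chromosome 2, 36081953 to 36105408, minus strand) read 15.1, 18.2 and 19.3 CPM in wild-type females and 18.4, 19.996 and 18.6 CPM in wild-type males. Mutant females read 17.7, 17.0 and 17.9 CPM, inside the wild-type female range. Mutant males read 15.3, 10.8 and 17.1 CPM, below all 3 wild-type males. Over both sexes the log2 fold change was -0.20 (95% interval -0.47 to 0.07), -0.21 without female mutant 3 and -0.10 (-0.29 to 0.09) without both. Lhx6 shares 104 exon bases with the small RNA gene Gm27953.

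Sox6 (ENSMUSG00000051910, chromosome 7, 115470872 to 116038796, minus strand), which cells of the oligodendrocyte lineage also express, was the steadiest member. It stood at 35.6 ± 1.31 CPM in wild types and 37.1 ± 4.10 CPM in mutants (SD, n = 6), and the mutants without female mutant 3 stood at 35.5 ± 1.62 CPM (n = 5). Its log2 fold change was 0.04 (95% interval -0.13 to 0.22), and -0.0029 (-0.12 to 0.11) without female mutant 3, the narrowest interval of the 10 in that fit. Without both libraries it was 0.01. Adarb2 (ENSMUSG00000052551, chromosome 13, 8202866 to 8768747, plus strand), a brain-enriched relative of the RNA-editing deaminases, read 30.8 ± 5.20 CPM in wild types and 32.4 ± 8.27 CPM in mutants. Female mutant 3 was again its highest library, at 48.0 CPM. The log2 fold change was 0.04 (95% interval -0.30 to 0.37) -0.07 (-0.32 to 0.18) without it, and -0.10 without both libraries. Sox6 overlaps 2 antisense genes and Adarb2 5 other genes, none in exons.

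Across genes, levels were compared per kilobase of annotated exon. In the wild types the order was Sst (104 CPM per kilobase), Cck (64.6), Npy (55.9), Pvalb (32.6), Calb2 (12.4), Vip (6.08), Reln (5.401), Lhx6 (3.80), Sox6 (2.40) and Adarb2 (2.35), each a mean of 6 mice. The secreted peptides and parvalbumin thus lay above the factors that specify the cells. Neighbours in this order whose wild-type ranges overlapped were Cck and Npy, Calb2 and Vip, Vip and Reln, and Sox6 and Adarb2. The steps from Sst to Cck, from Npy to Pvalb, from Pvalb to Calb2, from Reln to Lhx6 and from Lhx6 to Sox6 held without overlap over the 6 wild types.

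In females alone, 0 of 10 members passed edgeR's test (0% of all genes), with adjusted p = 0.423 to 0.994. At an unadjusted p under 0.05 there were 0 members, beside 11.8% of all genes. Reln lay lower and Sox6 higher in every mutant than in every wild-type female, 2 of 10 members, beside 22.5% of all genes whose groups did not overlap. Their log2 fold changes were -0.37 (95% interval -0.75 to 0.0025) and 0.18 (-0.05 to 0.40). Without female mutant 3 these were -0.23 and 0.10, and Cck moved from -0.47 to -0.22 and Vip from 0.52 to 0.07. Without both libraries these 4 values were the same to the digits given.

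In males alone, 0 of 10 passed as well (0% of all genes), with adjusted p = 0.9999 for each member. Lhx6 was the only member at an unadjusted p under 0.05, beside 2.78% of all genes. Its log2 fold change was -0.40 (95% interval -0.75 to -0.05; unadjusted p = 0.0286, edgeR). Without female mutant 3 it was joined by Vip at -0.29, and the 2 members stood beside 8.43% of all genes. In that fit edgeR gave Lhx6 an adjusted p = 0.545 (unadjusted p = 0.0185) and Vip an adjusted p = 0.576 (unadjusted p = 0.0330). Both rested in part on male mutant 10, the lowest library of the 12 for either gene. Without both libraries the changes were -0.23 (95% interval -0.48 to 0.03) and -0.19 (-0.47 to 0.08), with 0 members at an unadjusted p under 0.05. Lhx6 and Sox6 were lower in every male mutant than in every male wild type, 2 of 10 members, beside 13.5% of all genes. Once both libraries were left out, Sst was added, higher at 75.4 and 93.7 CPM against 74.4 to 75.2 CPM, which made 3 of 10, beside 21% of all genes.

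The difference between the effects in females and males was tested as an interaction. Of the 10 members 0 passed (0% of all genes), and Reln alone had an unadjusted p under 0.05, beside 7.67% of all genes. Its female effect was lower than its male effect by 0.55 on the log2 scale (95% interval of the difference -1.08 to -0.02; unadjusted p = 0.0438, adjusted p = 0.555, edgeR). The difference was -0.40 without female mutant 3 and -0.27 (-0.64 to 0.11) without both. On TMM-scaled levels Sox6 was higher without overlap in mutant females and lower without overlap in mutant males. Its interaction was 0.26 (95% interval -0.05 to 0.57, unadjusted p = 0.0929, adjusted p = 0.555, edgeR), which did not pass, and 0.18 and 0.17 in the smaller sets. With scaling by library totals the Sox6 interaction was 0.0089. For sex over both genotypes, 0 of 10 passed (adjusted p = 0.897 to 0.991), beside 0.0389% of all genes, and log2 differences of females over males ran from -0.28 (Calb2) to 0.31 (Vip). They ran from -0.22 to 0.15 without female mutant 3, and from -0.06 to 0.21 without both libraries.

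**Figure D4:**
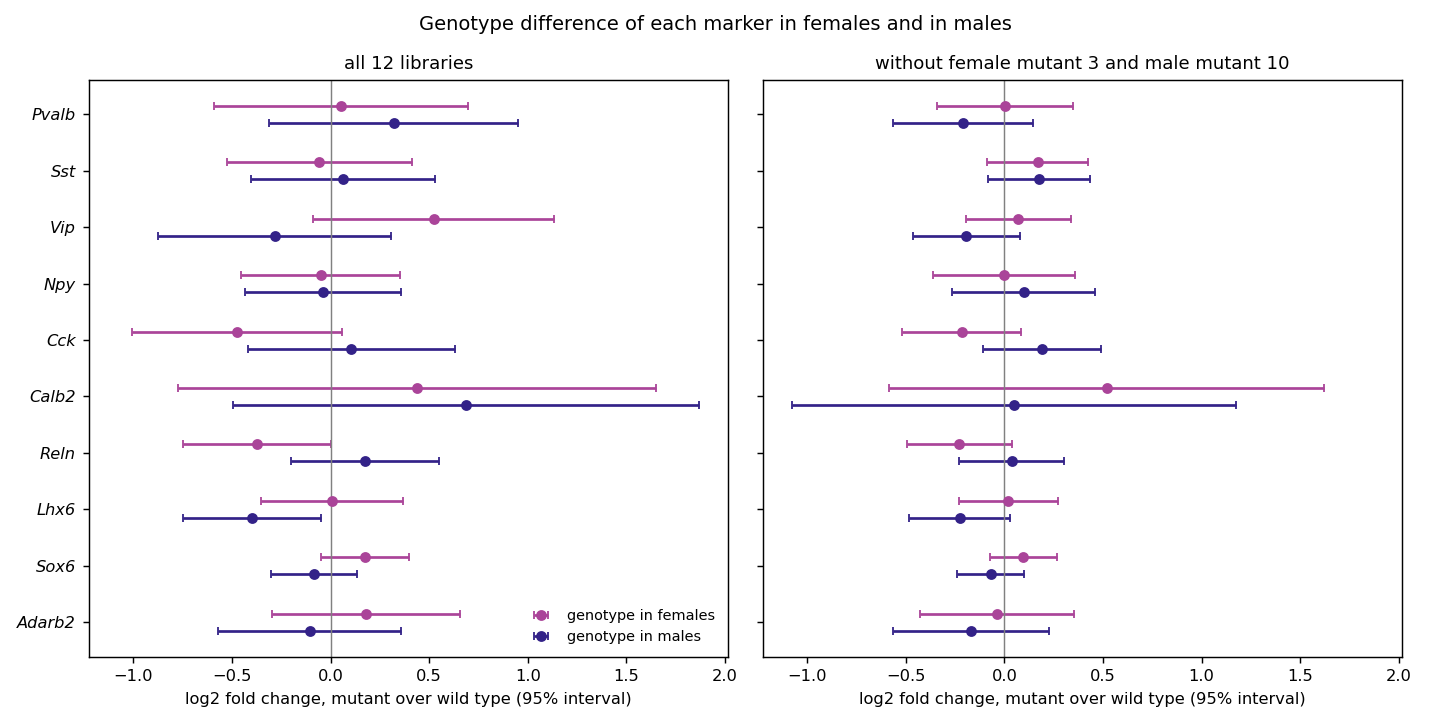
Log2 fold change of each marker, mutant over wild type, with its 95% interval (x axis), in females and in males, with all 12 libraries (left) and without female mutant 3 and male mutant 10 (right). With all libraries the male interval of Lhx6 alone lies wholly on 1 side of 0, and on the right every interval includes 0.

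Genes that mark the same cells were read beside the members, from lists of companions. Of 11 genes shared by all inhibitory neurons, 9 were lower and 2 higher in the mutants (median log2 fold change -0.22), and 0 passed edgeR's test. Without female mutant 3, and without both libraries, 11 of 11 were lower, with medians of -0.18 and -0.13 (medians of all genes 0.0023 and -0.0029). With all 12 libraries, 2 of 11 had an unadjusted p under 0.05, both lower, beside 2.45% of all genes that were lower at that level. The summed level of the 11 ran from 1274 to 1442 CPM in wild types and from 1136 to 1334 CPM in mutants, or to 1246 CPM without female mutant 3. With scaling by RLE 9 of 11 were lower. With scaling by library totals 11 of 11 were lower, and the median of all genes was lower as well, at -0.081 against -0.010.

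Gad1, which encodes the main GABA-synthesizing enzyme GAD67, had the smallest p of that list. Its wild-type levels were 385, 414 and 456 CPM in females and 387, 433 and 433 CPM in males. Every mutant lay below every wild type, at 353, 242 and 322 CPM in females and 360.2, 378 and 337 CPM in males, beside 0.438% of all genes whose genotypes did not overlap. None of the 10 subclass markers was among those genes. The log2 fold change was -0.34 (SE 0.10, unadjusted p = 0.00492, adjusted p = 0.950, edgeR), -0.26 without female mutant 3 and -0.29 without both. It ran from -0.41 to -0.26 over 24 alternatives and passed in 1 of them, DESeq2 without female mutant 3 (adjusted p = 0.0313). Gad2, for the enzyme GAD65, was the gene of that list with the smallest p among those higher, at 0.04, a value set by female mutant 3 (623 CPM, against 238 to 388 CPM elsewhere).

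Striatal projection neurons also express Gad1, and a list of 10 striatal genes was lower in the mutants for 10 of 10 (median log2 fold change -0.81), with 0 passing. It summed to 595 to 2011 CPM in wild types and 309 to 1065 CPM in mutants. With the mean of that list as a covariate, the log2 fold change of Gad1 was -0.32 (adjusted p = 0.977, edgeR). The pan-inhibitory list then had 7 of 11 lower with a median of -0.15. Because the striatal list itself was lower in the mutants, its part in these changes cannot be told apart from genotype and was not tested.

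**Figure D5:**
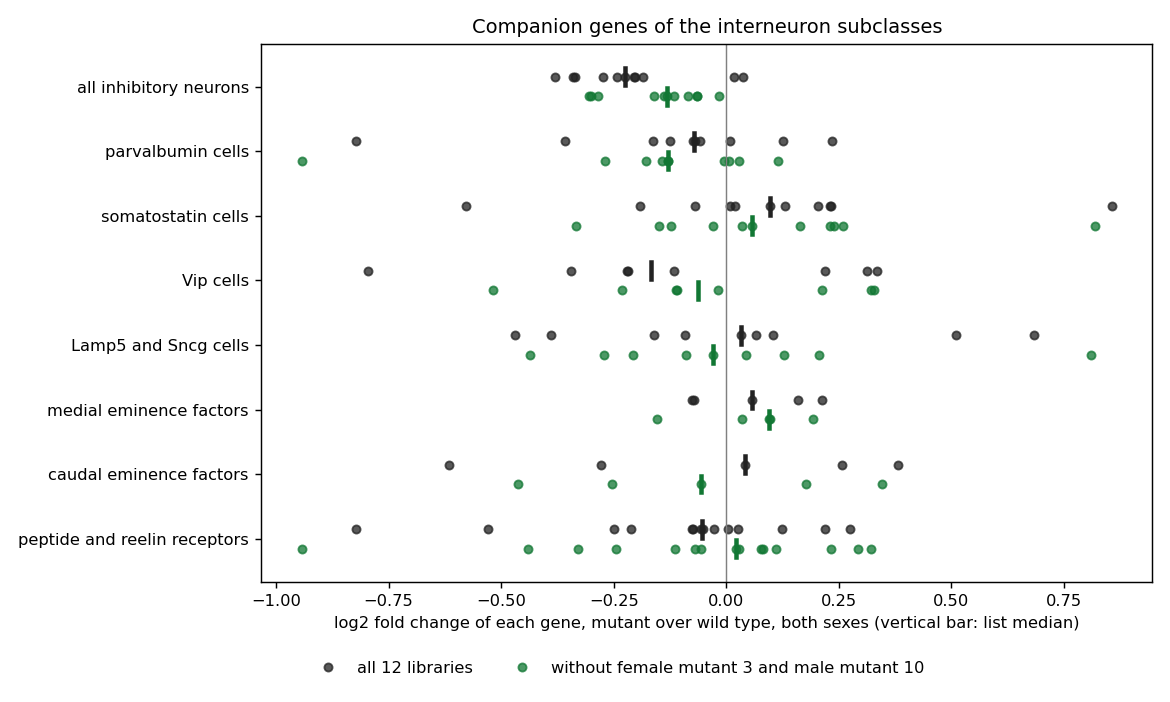
Log2 fold change of each companion gene, mutant over wild type over both sexes (x axis), by list, with all 12 libraries (black) and without female mutant 3 and male mutant 10 (green); vertical bars mark list medians. The genes shared by all inhibitory neurons lie mostly left of 0, with a median of -0.22, and the other lists lie on either side of it.

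The companions of single classes moved to either side of 0. For parvalbumin cells, 7 of 10 were lower (median -0.07), and the rule named Vipr2, a VIP receptor gene, at -0.82 (SE 0.29, unadjusted p = 0.0140, adjusted p = 0.950, edgeR) and Pthlh at 0.23. Vipr2 was a low gene, at 3.97 ± 1.57 CPM in wild types and 2.35 ± 0.715 CPM in mutants (SD, n = 6), and its change was -0.86 and -0.94 without female mutant 3 and without both. The list summed to 677 CPM in male mutant 10 and to 416 to 553 CPM in the other libraries. For somatostatin cells, 8 of 11 were higher (median 0.10), among them Myh8, a myosin gene, at 0.86 with under 1 CPM in wild types. Without both libraries 7 of 11 were higher (median 0.06), and with limma-voom and a quality weight for each library 6 of 11 (median 0.008). Myh8 was highest in female mutant 3, at 1.94 CPM, and its change ran from 0.64 to 1.03 over 23 alternatives. With all 12 libraries and at an unadjusted p under 0.05, 1 gene of 11 was higher, Myh8, beside 1.5% of all genes, and 1 was lower, Pdyn, beside 2.45% of all genes. Pdyn, for prodynorphin, stood at -0.58 (unadjusted p = 0.0363, edgeR) and at -0.33 without both libraries, where it missed that level, and it too is a striatal gene.

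For Vip cells, 5 of 8 were lower (median -0.17), with Chat at -0.80 and Crispld2 at 0.33. With the striatal covariate that list had 4 of 8 lower and a median of -0.001. Chat changed sign in 1 of 24 alternatives, its values running from -1.15 to 0.04. For Lamp5 and Sncg cells, 4 of 9 were lower (median 0.03), with Lamp5 at -0.39 (SE 0.12, unadjusted p = 0.00559, adjusted p = 0.950, edgeR) and Krt73 at 0.68. Lamp5, which marks neurogliaform cells and is made by upper-layer excitatory cells too, read 140.2 ± 18.8 CPM in wild types and 107 ± 15.3 CPM in mutants, with overlap, and its change was -0.34 without female mutant 3 and -0.27 without both. Other factors of the medial eminence (5 genes, 3 higher) gave Maf at 0.16 and Satb1 at -0.08, and those of the caudal eminence (5 genes, 3 higher) gave Npas3 at 0.26 and Sp8 at -0.62. The adjusted p was 0.950 for each of these genes, and 0 genes of any companion list passed edgeR's test. Sp8 was a low gene, at 0 CPM in female mutant 3 and highest, at 4.13 CPM, in male wild type 13. Its change ran from -0.77 to -0.28 over 24 alternatives. With scaling by library totals, the medians of the Lamp5 and Sncg list and of the medial and caudal factors turned negative, at -0.04, -0.02 and -0.05. Without both libraries these medians were -0.03, 0.09 and -0.06, and with the striatal covariate -0.06, 0.18 and -0.09.

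The receptors and adaptors that answer the members' products were also read. Of 14 tested receptors of somatostatin, VIP, neuropeptide Y, cholecystokinin and reelin and the reelin adaptor Dab1, 5 were higher and 9 lower, with a median of -0.05, and 0 passed. Without both libraries 15 were tested, of which 8 were higher and 7 lower, with a median of 0.02. Dab1, which relays the reelin signal inside the cell, was higher at 0.27 (SE 0.09, unadjusted p = 0.00812, adjusted p = 0.950, edgeR), with 97.9 to 120.4 CPM in wild types and 119 to 158 CPM in mutants. Its change was 0.22 without female mutant 3 and 0.23 without both. The reelin receptor genes Vldlr and Lrp8 stood at -0.08 and 0.0042. Vipr2, named above, was the lower gene of smallest p here as well. Sstr5 was too low to be tested with all 12 libraries.

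Among 15044 tested genes with a mean of at least 1 CPM, the profiles over the 12 libraries nearest to Sst were those of Syt5, Mras and Brinp2, with mean absolute differences of 0.045, 0.047 and 0.060 on the centred log2 scale. Nearest to Vip were Gria3, Smarca1 and Gm9892, at 0.088, 0.099 and 0.11. Of these 6 genes, 2 (Syt5 and Mras) stayed among the nearest 3 over the 11 libraries without female mutant 3, and over the 10 without both.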

How the data were processed

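Cortex mRNA of 12 mice was sequenced as paired reads of 150 bases, per the labels' protocols. The submitters' processing notes name Trimmomatic 0.36, HISAT2 2.1.0, Cufflinks, HTSeq 0.11 and the build GRCm38.p6, and the deposited table holds raw counts per gene. Of 54232 identifiers, 54165 matched GENCODE M21. Genes kept by filterByExpr entered edgeR 4.0.16 (R 4.3.3) with TMM scaling and its quasi-likelihood test, with sex and genotype as terms, or 1 mean per group for each sex and the interaction. Calls used Benjamini-Hochberg adjusted p values, over every gene tested, at 0.05. The procedure was tested on simulated data. The members and lists were chosen with earlier results of these data known. Of each companion list, the called genes or, with none, the genes of smallest p higher and lower are named, and for Sst and Vip the 3 genes of nearest profile (prior count 2); that of Pvalb is not reported here. The cerebellar list and the fits without male mutant 10 were chosen after the data were seen. Alternatives were DESeq2 1.42.0, limma 3.58.1, other scalings and filters, a striatal covariate, no sex term and leaving out each library; the group concerned then kept 2 libraries. Same-group libraries differed beyond counting error (chi-square per degree of freedom 6.77 to 109), so none was counted as a repeat. Intervals are at 95% confidence.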

Additional observations from a re-analysis of the deposited data

Results flagged for a closer look

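In 5 of 20 checks, each of 1 member in the 6 libraries of 1 genotype, a library stood far from the others by Dixon's criterion, which chance meets in about 1 of 20 groups. Female mutant 3 accounts for 3 of them as the highest mutant library, with Vip at 51.1 CPM, Sox6 at 44.9 CPM and Adarb2 at 48.0 CPM. Lhx6 accounts for the others, as the lowest mutant library, male mutant 10, at 10.8 CPM, and as the lowest wild-type library, female wild type 2, at 15.1 CPM. Female mutant 3 had 3748515 counts and a mitochondrial share of 31.6%, and male mutant 10 the summed cerebellar level of 567 CPM, and their part in these values was not tested.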

How the results depend on the processing

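No member was called in any of the 5 comparisons under any of 23 alternatives, or 24 over both sexes, and the lowest adjusted p was 0.176 (edgeR), for Vip in females without female mutant 1. The log2 fold change there was 0.78, and the mutant females kept were female mutant 3, with Vip at 51.1 CPM, and female mutant 6, at 22.7 CPM. Signs were less stable: over both sexes 33 of 240 log2 fold changes changed sign, in females 31 of 230, in males 15, for the interaction 25 and for sex 24 of 230 each. Over all genes, the genotype comparison called 1 gene with edgeR, 29 with DESeq2 and 53 with DESeq2 without female mutant 3. Nearest-profile genes depended on the library set (for Sst and Vip, 2 of 6 shared without female mutant 3). No paired analysis was possible because no animal number occurs in more than 1 group. Depth limits female mutant 3, where Lhx6 rested on 44 counts (17.0 CPM, exact Poisson interval 12.4 to 22.9).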
